A study of Mus musculus with 12 samples.

Results

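The genes for intraflagellar transport (IFT) and for the BBSome, the cargo adaptor of the cilium, were followed in whole testes of Topaz1-/- (KO) and wild-type (WT) mice. They were chosen by name: a probe belonged to the set when its gene symbol in the array annotation, current or earlier, was on a list of 36 genes. Of these, 34 were measured, by 70 probes, among 19057 genes with a named probe, and 2 were not analysed here. A gene was read from its probe of highest mean intensity over the 12 arrays, and 24 of the 34 genes had more than 1 probe. By role the 34 genes comprised 9 of the IFT-B core (IFT-B1), 6 of the peripheral part of IFT-B (IFT-B2), 6 of IFT-A, 7 subunits of the BBSome, 3 chaperonin-like proteins that help to assemble the BBSome, and 3 small GTPases or cargo adaptors.

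Cilia and flagella have no ribosomes, so their proteins are made in the cell body and carried in on trains that move along the axoneme between its microtubule doublets and the membrane. IFT-B trains are driven outwards by kinesin-2 and IFT-A is needed for the return by dynein-2, while the BBSome rides on the trains and takes membrane proteins out of the cilium. In the mouse testis the male germ cell is the cell that builds a flagellum, which begins in early round spermatids, and loss of Ift20, Ift140 or Ift172 in mouse male germ cells is known to give defective sperm tails and infertility. Mice lacking the BBSome subunits Bbs2 or Bbs4, or the chaperonin-like Mkks, also lack sperm flagella.

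The groups were KO at 20 days after birth (P20), WT at P20, KO at P15 and WT at P15, with 3 testis samples each that the labels call biological repeats. All mice were of the C57Bl/6N strain, wild-type or Topaz1-/-, and the labels give neither the allele's structure nor any treatment. Total RNA of the whole organ was hybridised to 1 Illumina bead array per sample. Topaz1, which the study describes as a factor of germ cells that meiosis in males depends on, had no named probe, so the genotype labels were not checked against its transcript. Before normalization the arrays had median intensities of 128.2 to 143.4, and no pair of arrays held identical values. After quantile normalization 52.4% of the probes lay above the background threshold, at log2 7.51, on each array. That share is the same on all arrays because the normalization gives them 1 distribution, so it does not compare their quality. Whole testis mixes germ and somatic cells, so a higher level per cell and a larger share of the cells that express a gene cannot be told apart.

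Most of the transport genes were detected in these testes. Of the 34 genes, 27 lay above background on all 12 arrays, and Ift46, Traf3ip1 and Ttc21b did so on 9 to 11. Ift57, Wdr19, Wdr35 and Lztfl1 lay above background on 0 to 4 arrays, so little can be read from their probes. Levels are given as log2 of the quantile-normalized intensity plus 50, and since probes bind with different strength, a level is compared between samples of 1 gene and never between genes.

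**Figure D1:**
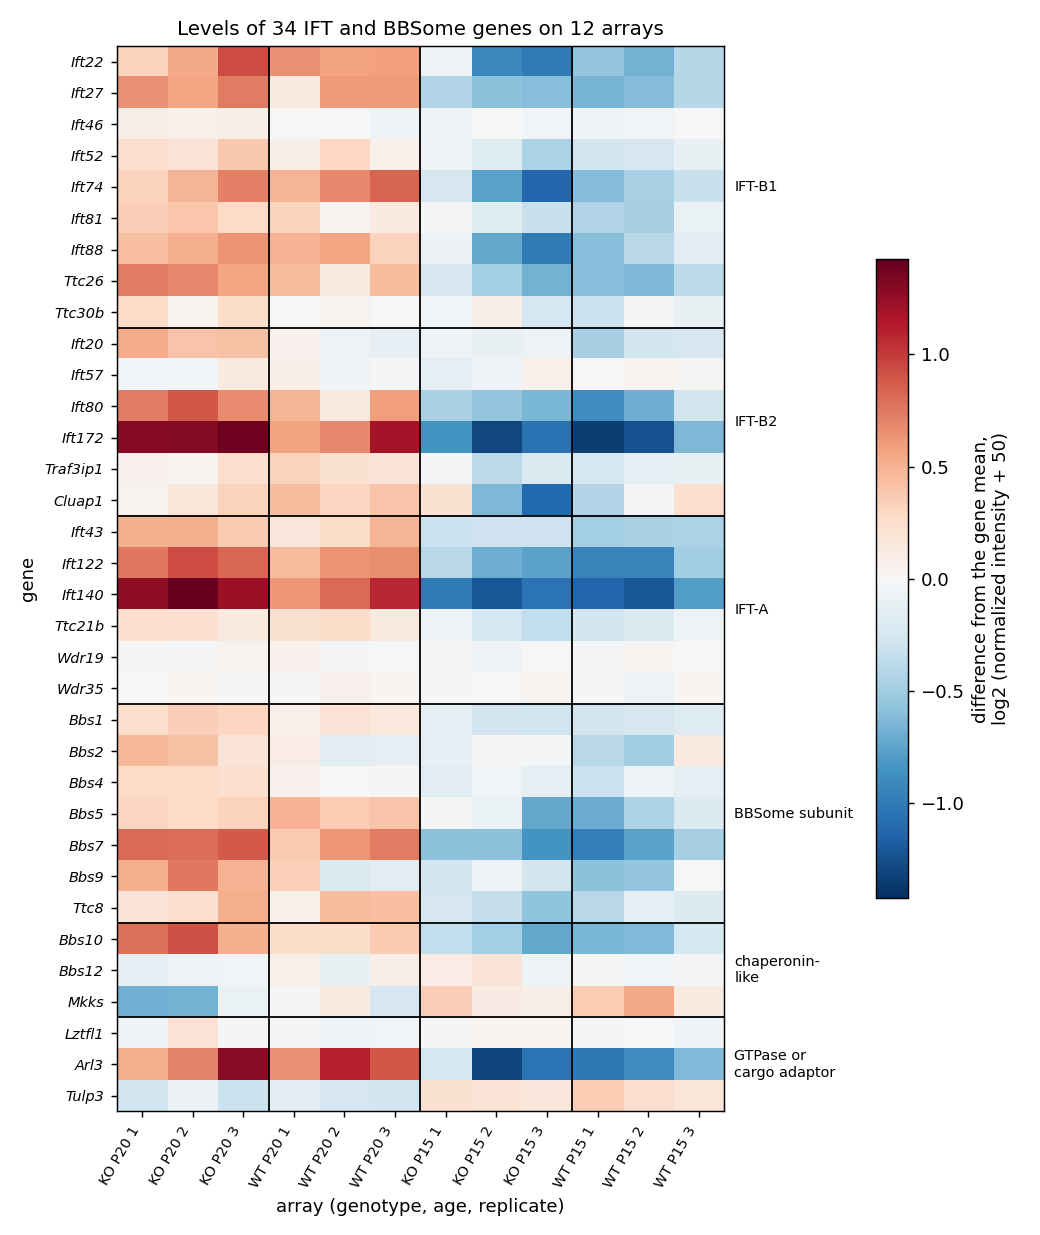
Level of each of the 34 measured genes on each of the 12 arrays (columns, KO left of WT within each age), as the difference in log2 intensity from that gene's mean over the 12 arrays, with genes (rows) ordered by complex. Most rows are higher on the P20 arrays than on the P15 arrays, with Ift172, Ift140 and Arl3 the clearest, and Mkks and Tulp3 run the other way.

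Between P15 and P20 the transport machinery rose in both genotypes. In KO testes 24 of the 34 genes rose, 2 fell and 8 did not pass the test (limma, Benjamini-Hochberg adjusted p under 0.05 over all 45281 probes), where 13.5% of all named genes rose and 21.6% fell. In WT testes 22 rose, 1 fell and 11 did not pass, against 11.2% and 16.5% of all named genes. Of the 27 transport genes above background on all 12 arrays, 21 rose and 2 fell in KO, and 20 rose and 1 fell in WT. Of the 10030 named genes above background on all 12 arrays, 19.5% rose and 38.2% fell in KO, and 16.2% and 29.6% in WT. The median log2 change of the 34 genes was 0.56 in KO and 0.43 in WT, and that of all named genes was -0.02 in each. The 22 genes that rose in WT all rose in KO too. All P20 arrays lay above all P15 arrays for 25 genes in KO, where 17.1% of named genes did so, and for 24 genes in WT, where 17% did. They lay below for 2 genes in KO, against 26.5% of named genes, and for 1 in WT, against 27.5%. The summed intensity of 8 spermatocyte markers was 85486 to 89831 in KO P20 testes, against 9660 to 23222 in KO P15 testes. In WT it was 72798 to 79276 at P20, against 8664 to 26137 at P15. On each array 5 or 6 of these markers lay above background, and Ldhc, Hspa2 and Piwil1 carried most of the sum. The part of these markers’ cells in the rise was not tested.

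Ift172 and Ift140 had the largest rises of the 34 genes in both genotypes. Ift172 is a large IFT-B2 subunit with a role in turning trains round at the ciliary tip. Its level was 12.79, 12.80 and 12.88 in KO P20 testes, against 10.64, 10.20 and 10.43 in KO P15 testes. In WT it was 12.07, 12.18 and 12.68 at P20, against 10.13, 10.25 and 10.85 at P15. The ages were far apart in both genotypes, and the log2 change was 2.40 ± 0.20 (SE, limma adjusted p = 1.36e-05) in KO, 5.28-fold, and 1.90 ± 0.20 (SE, limma adjusted p = 0.000103) in WT, 3.72-fold. All 3 of its probes rose in both genotypes.

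Ift140, the IFT-A subunit needed for retrograde transport, rose by nearly as much. Its level was 12.17, 12.33 and 12.13 in KO P20 testes, against 9.90, 9.69 and 9.85 in KO P15 testes, and in WT it was 11.53, 11.72 and 11.98 at P20, against 9.77, 9.69 and 10.11 at P15. The arrays of the earlier age lay close together and well below all those of the later age. The change was 2.40 ± 0.13 (adjusted p = 7.35e-07) in KO, 5.26-fold, and 1.88 ± 0.13 (adjusted p = 6.45e-06) in WT, 3.69-fold. Of its 4 probes 3 rose in both genotypes, and the fourth lay above background on 2 arrays.

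Arl3, a small GTPase that releases lipid-modified cargo inside the cilium, was the third of the strong risers. It had 11.70, 11.91 and 12.48 in KO P20 testes, against 10.95, 9.89 and 10.15 in KO P15 testes, and 11.86, 12.31 and 12.08 in WT P20 testes, against 10.18, 10.32 and 10.57 in WT P15 testes. Its replicates were further apart than those of Ift140, yet the ages did not overlap. The change was 1.70 ± 0.27 (adjusted p = 0.000959) in KO and 1.72 ± 0.27 (adjusted p = 0.00133) in WT, about the same size in both.

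Bbs7, a BBSome subunit of the propeller type, was the leading gene of its complex. Its level was 11.34, 11.33 and 11.41 in KO P20 testes, against 9.95, 9.95 and 9.69 in KO P15 testes, and 10.91, 11.17 and 11.28 in WT P20 testes, against 9.56, 9.77 and 10.07 in WT P15 testes, with a change of 1.50 ± 0.13 (adjusted p = 1.8e-05) in KO and 1.32 ± 0.13 (adjusted p = 6.55e-05) in WT. Ift122, another IFT-A subunit, had 10.20, 10.38 and 10.27 in KO P20 testes, against 9.05, 8.75 and 8.68 in KO P15 testes, and 9.90, 10.09 and 10.11 in WT P20 testes, against 8.49, 8.51 and 8.95 in WT P15 testes. Its change was 1.46 ± 0.13 (adjusted p = 2.24e-05) in KO and 1.38 ± 0.13 (adjusted p = 4.99e-05) in WT. For both genes every P20 array lay above every P15 array.

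Ift80, an IFT-B2 subunit, had 9.47, 9.63 and 9.42 in KO P20 testes, against 8.28, 8.18 and 8.09 in KO P15 testes, and 9.23, 8.88 and 9.34 in WT P20 testes, against 7.86, 8.05 and 8.48 in WT P15 testes. It rose by 1.33 ± 0.16 (adjusted p = 0.000125) in KO and 1.02 ± 0.16 (adjusted p = 0.00107) in WT. Ift22, a GTPase-like subunit of IFT-B1, had 9.72, 9.92 and 10.32 in KO P20 testes, against 9.34, 8.46 and 8.38 in KO P15 testes, and 10.04, 9.96 and 9.96 in WT P20 testes, against 8.82, 8.71 and 8.98 in WT P15 testes. It rose by 1.26 ± 0.23 (adjusted p = 0.0021) in KO and 1.15 ± 0.23 (adjusted p = 0.00502) in WT, with 1 KO P15 array standing well above the other two.

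By complex, the rise ran through both IFT subcomplexes and the BBSome. Of IFT-B1, 8 of 9 genes rose in KO, with a median log2 change of 1.13, and 7 of 9 in WT, with a median of 0.84. Ift74 and Ift81, which pair to bind tubulin, rose by 1.21 and 0.51 in KO and by 1.13 and 0.50 in WT. Ift27, which links the trains to the BBSome, rose by 1.19 in KO and 1.01 in WT, Ift88 by 1.14 and 0.84, and Ttc26 by 1.13 and 0.89. Ift52, a core scaffold subunit, rose by 0.51 in KO and 0.36 in WT. Ttc30b did not pass in either genotype, and its reading is uncertain because it has the close copies Ttc30a1 and Ttc30a2, both of which rose in KO and in WT.

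Of IFT-B2, 4 of 6 genes rose in each genotype, Ift172, Ift80, Ift20 and Traf3ip1. Ift57 lay near background, and the log2 change of Cluap1 was 0.69 ± 0.28 (adjusted p = 0.105) in KO and 0.45 ± 0.28 (adjusted p = 0.339) in WT. Of IFT-A, the same 4 of 6 genes rose in each genotype: Ift140, Ift122, Ift43 and Ttc21b, with Ift43 at 0.76 in KO and 0.77 in WT. The remaining IFT-A genes, Wdr19 and Wdr35, were the ones near background. Of the BBSome, 6 of 7 subunits rose in KO and 5 of 7 in WT, with medians of 0.59 and 0.38. Bbs1, Bbs4, Bbs5, Bbs7 and Ttc8 rose in both, and Bbs2 in neither. Bbs5, which binds phosphoinositides, rose by 0.59 in KO and 0.86 in WT.

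The chaperonin-like proteins did not move together. Bbs10 rose, by 1.25 ± 0.13 (adjusted p = 6.75e-05) in KO and 0.81 ± 0.13 (adjusted p = 0.0017) in WT, and Bbs12 passed in neither genotype. Mkks, also known as Bbs6, had 8.76, 8.77 and 9.35 in KO P20 testes, against 9.80, 9.56 and 9.54 in KO P15 testes, and 9.41, 9.58 and 9.20 in WT P20 testes, against 9.81, 9.98 and 9.57 in WT P15 testes. It fell in KO, with a log2 change of -0.67 ± 0.17 (adjusted p = 0.0129), and in WT the change was -0.39 ± 0.17 (adjusted p = 0.151) with overlapping ages. The fall in KO was lost without KO P20 replicate 1 (-0.57, adjusted p = 0.0537) or 2 (-0.58, adjusted p = 0.0551), and the log2 change of the second Mkks probe in KO was 0.04.

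Tulp3, the adaptor that takes receptors into the cilium on IFT-A, fell in both genotypes. It had 7.69, 7.89 and 7.68 in KO P20 testes, against 8.19, 8.17 and 8.14 in KO P15 testes, and 7.83, 7.75 and 7.71 in WT P20 testes, against 8.34, 8.21 and 8.15 in WT P15 testes. The ages did not overlap, and the change was -0.41 ± 0.07 (adjusted p = 0.000846) in KO and -0.47 ± 0.07 (adjusted p = 0.000573) in WT.

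**Figure D2:**
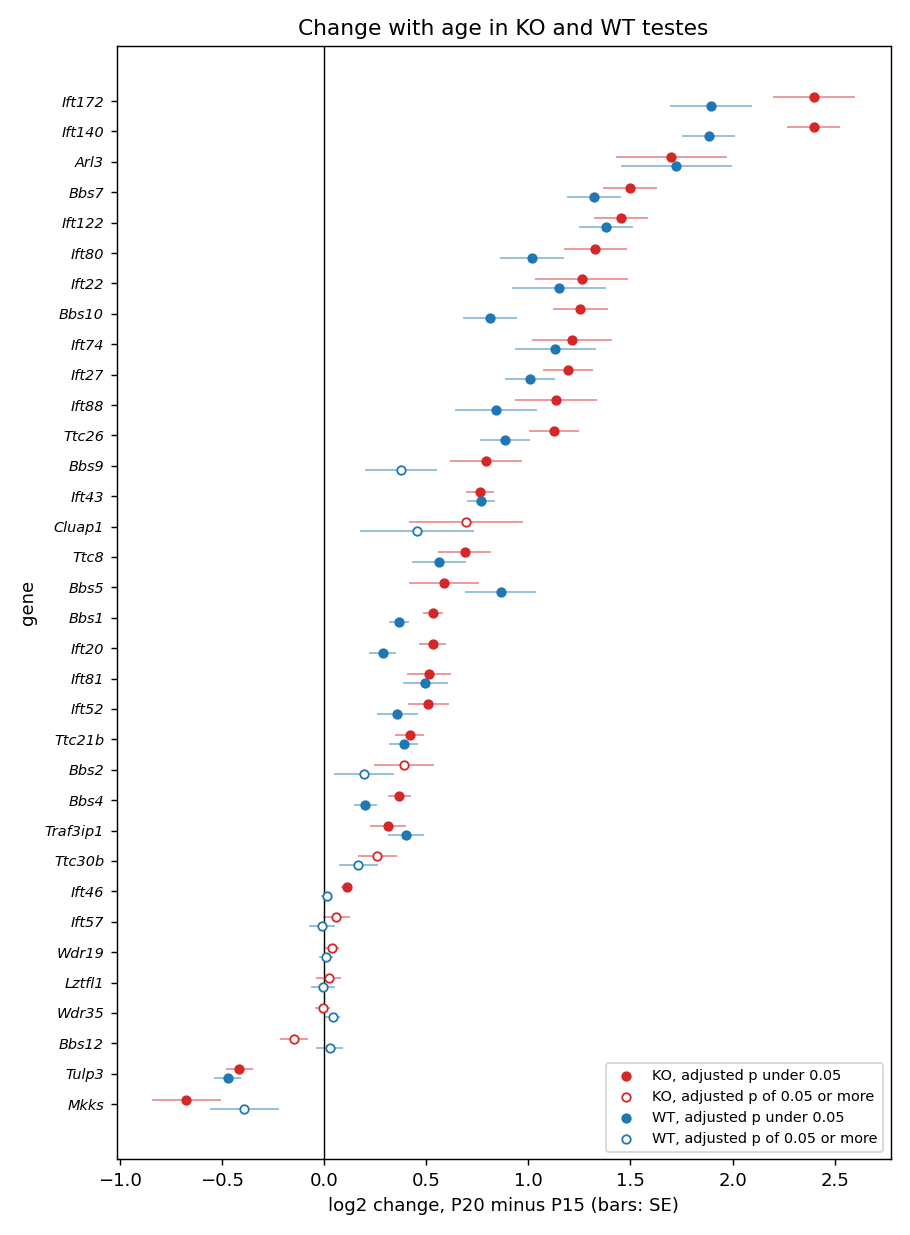
Log2 change from P15 to P20 (horizontal axis) of each measured gene in KO testes and in WT testes, with bars of 1 standard error of the limma fit and 3 arrays per group. Ift172 and Ift140 lie near 2.40 in KO and 1.90 in WT, and Mkks and Tulp3 lie furthest below 0.

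Where a gene had several probes above background on all arrays, their signs with age mostly matched. For 11 of 13 such genes the changes of all probes had the same sign, in KO and in WT, the exceptions being Cluap1 and Mkks. Between genotypes the signs matched less often, for 7 of the 13 genes at P20 and for 6 at P15. A genotype difference given for a gene is thus that of its brightest probe. The 2 age comparisons rest on the same normalization and share arrays with the genotype comparisons.

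Since so many of the genes rose together, the 300 bases around their transcription starts (250 before to 50 after) were read from RefSeq, assembly GRCm38.p6, where 30 of the 34 genes had a window. RFX factors, which drive ciliary genes in vertebrates and include the testis factor Rfx2, bind the X-box, an inverted repeat. The letters searched were the half-site GTTGCC and its reverse complement GGCAAC, and a consensus of 14 letters made of GTTGCC, then AT, then GGCAAC. The consensus is its own reverse complement, so both strands were covered, and a half-site may lie within a consensus match. A window held the consensus when at least 11 of the 14 letters matched. Windows of 5 genes are shown, 5′ to 3′ on the gene's strand, because these genes lead the age changes or, in the case of Ift20, the genotype comparison. Capitals mark a consensus match or a half-site. They lie at chr17:25015836-25016135 (plus strand), chr3:36613340-36613639 (minus strand), chr5:31291065-31291364 (minus strand), chr19:46573133-46573432 (minus strand) and chr11:78536111-78536410 (plus strand).
Ift140: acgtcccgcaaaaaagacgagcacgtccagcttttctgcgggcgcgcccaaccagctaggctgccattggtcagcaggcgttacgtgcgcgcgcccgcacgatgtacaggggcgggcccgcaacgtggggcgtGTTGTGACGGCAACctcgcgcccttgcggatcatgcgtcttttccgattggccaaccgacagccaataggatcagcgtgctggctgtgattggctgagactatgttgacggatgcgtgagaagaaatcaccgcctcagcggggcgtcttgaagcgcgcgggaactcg
Bbs7: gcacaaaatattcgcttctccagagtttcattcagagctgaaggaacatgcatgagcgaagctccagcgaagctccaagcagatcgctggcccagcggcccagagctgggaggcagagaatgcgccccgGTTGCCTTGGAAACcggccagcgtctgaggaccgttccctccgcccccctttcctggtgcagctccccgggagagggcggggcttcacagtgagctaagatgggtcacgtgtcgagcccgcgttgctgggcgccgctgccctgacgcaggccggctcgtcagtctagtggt
Ift172: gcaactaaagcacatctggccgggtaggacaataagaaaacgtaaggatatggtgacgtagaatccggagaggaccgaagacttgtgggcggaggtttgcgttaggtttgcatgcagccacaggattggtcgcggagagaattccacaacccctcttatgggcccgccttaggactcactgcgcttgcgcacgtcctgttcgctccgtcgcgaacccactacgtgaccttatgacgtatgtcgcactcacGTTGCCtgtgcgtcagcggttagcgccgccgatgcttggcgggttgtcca
Arl3: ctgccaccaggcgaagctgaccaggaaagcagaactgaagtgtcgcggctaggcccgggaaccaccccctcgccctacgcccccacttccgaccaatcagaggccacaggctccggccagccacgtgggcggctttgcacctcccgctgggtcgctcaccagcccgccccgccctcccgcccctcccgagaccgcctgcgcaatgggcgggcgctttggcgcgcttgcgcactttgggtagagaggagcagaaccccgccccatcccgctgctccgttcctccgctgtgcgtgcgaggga
Ift20: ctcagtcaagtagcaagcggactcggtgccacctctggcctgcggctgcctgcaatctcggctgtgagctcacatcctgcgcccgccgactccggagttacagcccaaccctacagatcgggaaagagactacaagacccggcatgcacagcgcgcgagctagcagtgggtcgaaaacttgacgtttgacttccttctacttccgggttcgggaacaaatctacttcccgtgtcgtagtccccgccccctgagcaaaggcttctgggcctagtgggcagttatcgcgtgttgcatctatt

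The consensus stood in 8 of the 30 windows (26.7%), against 3.84% of the windows of 27025 genes and 4.36% of those of the 8171 named genes above background on all arrays. A half-site stood in 12 of the 30 (40%), against 14.1% and 15% in the same sets. Among the 19 genes with a window that rose with age in both genotypes, 6 held the consensus and 9 a half-site, and among the other 11 genes the counts were 2 and 3. These shares are a description of letters in a window, with no test, and say nothing of which factor binds there. The 8 matches are given below 5′ to 3′, with letters equal to the consensus in capitals and the others in lower case, to show how the palindrome varies between genes.
Bbs1: GTTGCCAaGGCgAC
Bbs7: GTTGCCtTGGaAAC
Ttc26: GTTGCCgTGGaAAC
Ift140: GTTGtgAcGGCAAC
Ift22: GTcGCCgTGGaAAC
Ift57: GTTGCCgTGGtgAC
Traf3ip1: GTTGCCAaGGCcgC
Bbs12: GTTGCtATaGCAgC

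Bbs7 and Ttc26 carried matches of 12 letters that begin at positions -121 and -33 relative to the start, counted with no position 0, and Bbs1 one of 12 letters that begins at position 2. The match of Ift140, of 11 letters, begins at position -117. Ift172, among the strongest risers, held only a half-site, at its first transcribed base, and the windows of Arl3 and Ift20 held neither, with at most 8 and 7 of the 14 letters. The strongest risers thus included windows with and without the motif.

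Rfx2 itself had 13.07, 13.38 and 13.03 in KO P20 testes, against 10.89, 10.10 and 9.84 in KO P15 testes, and 12.61, 12.73 and 13.14 in WT P20 testes, against 9.76, 10.04 and 10.94 in WT P15 testes. It rose by 2.89 ± 0.32 (adjusted p = 9.68e-05) in KO and 2.58 ± 0.32 (adjusted p = 0.000319) in WT, more than any of the 34 transport genes in its genotype. Rfx4 rose by 2.97 ± 0.28 (adjusted p = 2.99e-05) in KO and 2.11 ± 0.28 (adjusted p = 0.000443) in WT. Rfx1 fell in KO, with a change of -0.83 ± 0.14 (adjusted p = 0.00109), and its change of -0.35 in WT did not pass. Of 9 measured ciliary transcription factors 3 rose and 1 fell in KO with age, and 3 rose and 0 fell in WT. The median changes of the 9 were 0.06 in KO and 0.05 in WT.

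The question of the study was what Topaz1 loss changes, and at P20 1 of the 34 transport genes passed the test between genotypes. Ift20 was higher in KO testes, 0 genes were lower and 33 did not pass. That is 2.94% of the 34. Of all named genes 1.41% passed in either direction and 1% were higher in KO, and of all probes 1.04% passed. Of the 34 differences 21 were positive (61.8%), their median was 0.11, and 13 had an unadjusted p under 0.05 (38.2%). Of all named genes 51.7% were positive and 15.2% had an unadjusted p under 0.05, and their median was 0.00293. Among genes above background on all 12 arrays, 44.4% of 27 transport genes had an unadjusted p under 0.05, against 21.4% of 10030 named genes.

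Ift20, the IFT-B2 subunit that also sits at the Golgi, had 13.44, 13.32 and 13.33 in KO P20 testes, against 12.97, 12.83 and 12.80 in WT P20 testes. All 3 KO arrays lay above all 3 WT arrays, by more than the spread within either group. The log2 difference was 0.50 ± 0.06 (SE, limma adjusted p = 0.00819), 1.41-fold. At P15 the level was 12.85, 12.81 and 12.84 in KO testes, against 12.44, 12.63 and 12.67 in WT testes, again without overlap, and the difference of 0.25 ± 0.06 (adjusted p = 0.454) did not pass. Without KO P20 replicates 1 and 3, the arrays with high levels of the epididymal genes Defb2 and Adam7, the P20 difference was 0.45 and did not pass (adjusted p = 0.162), with 1 KO array left that is assumed to vary like the others.

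The other probes of Ift20 did not give the same result. The second brightest, ILMN_2592093, had 10.89, 10.94 and 11.55 in KO P20 testes, against 11.20, 11.74 and 11.08 in WT P20 testes, overlapping groups with a difference of -0.21 ± 0.23 (adjusted p = 0.822). The dimmest, ILMN_2671767, had 9.99, 10.10 and 9.38 in KO P20 testes, against 9.09, 8.96 and 9.10 in WT P20 testes. Its groups did not overlap, and its difference of 0.77 ± 0.17 did not pass (adjusted p = 0.0713). Which transcripts each probe reads was not tested. Of the 3 probes 2 were higher in KO at P20, and the call of Ift20 is that of 1.

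**Figure D3:**
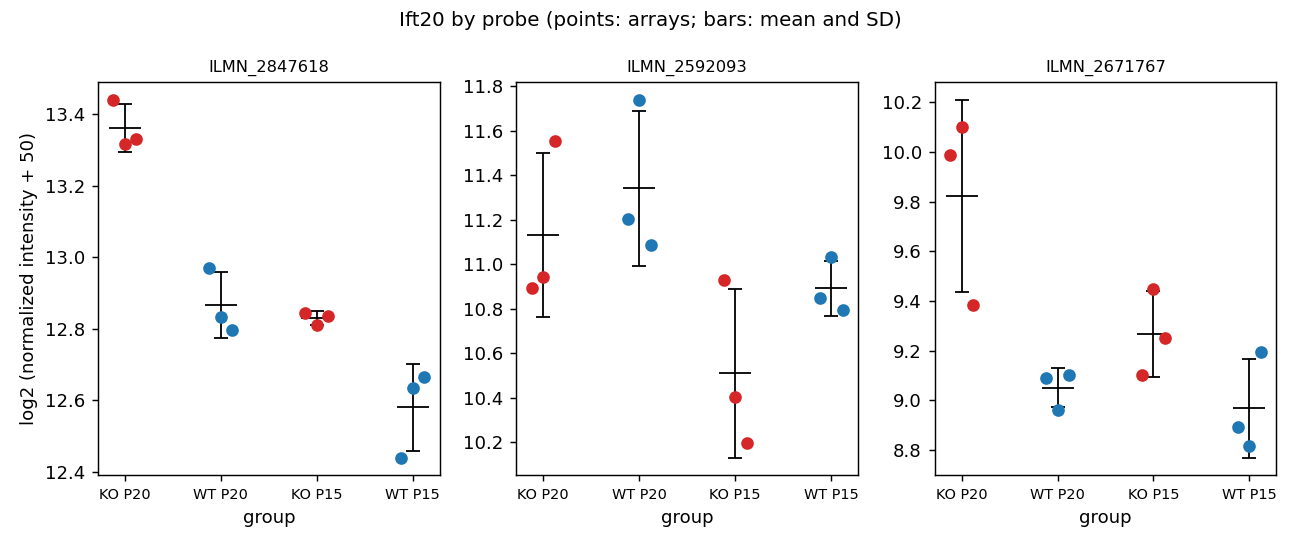
Log2 intensity of the 3 Ift20 probes on each array (points) with the mean and SD of each group (bars), for KO and WT at P20 and at P15, 3 arrays per group. The KO P20 arrays of the brightest probe lie between 13.32 and 13.44, above the WT P20 arrays, and the groups of ILMN_2592093 overlap.

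Larger differences than that of Ift20, in Bbs9 and Ift172, were not called. Bbs9, a scaffold subunit of the BBSome, had 9.95, 10.19 and 9.93 in KO P20 testes, against 9.78, 9.23 and 9.28 in WT P20 testes, a difference of 0.59 ± 0.17 (adjusted p = 0.17). Ift172 had 12.79, 12.80 and 12.88 in KO P20 testes, against 12.07, 12.18 and 12.68 in WT P20 testes, a difference of 0.52 ± 0.20 (adjusted p = 0.33). In both genes the KO arrays lay above the WT arrays, while the WT arrays were spread by about as much as the difference. The second Bbs9 probe, ILMN_2684272, had 7.69, 7.76 and 7.63 in KO P20 testes, against 7.70, 7.70 and 7.73 in WT P20 testes, overlapping groups. Over the 3 Ift172 probes the P20 difference ran from 0.12 to 0.52.

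Ift140, with 12.17, 12.33 and 12.13 in KO P20 testes against 11.53, 11.72 and 11.98 in WT P20 testes, differed by 0.47 ± 0.13 (adjusted p = 0.146). Bbs10 had 9.97, 10.10 and 9.70 in KO P20 testes, against 9.45, 9.45 and 9.56 in WT P20 testes, a difference of 0.43 ± 0.13 (adjusted p = 0.194). Bbs2, another BBSome subunit, had 9.37, 9.33 and 9.09 in KO P20 testes, against 9.01, 8.76 and 8.78 in WT P20 testes, a difference of 0.41 ± 0.15 (adjusted p = 0.269). The KO arrays of these genes lay above the WT arrays, but none passed. Over the 3 Ift140 probes above background the P20 difference ran from 0.12 to 0.47, and over the 2 Bbs10 probes from 0.18 to 0.43.

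Ift80 had 9.47, 9.63 and 9.42 in KO P20 testes, against 9.23, 8.88 and 9.34 in WT P20 testes, a difference of 0.36 ± 0.16 (adjusted p = 0.394) without overlap. Mkks was the largest negative difference, with 8.76, 8.77 and 9.35 in KO P20 testes, against 9.41, 9.58 and 9.20 in WT P20 testes and -0.44 ± 0.17 (adjusted p = 0.322). Its groups overlapped through KO replicate 3, and its second probe differed by 0.18, the opposite sign. Bbs4, which ranked next to Ift20 by adjusted p, had 10.24, 10.25 and 10.19 in KO P20 testes, against 10.03, 9.96 and 9.99 in WT P20 testes, a difference of 0.24 ± 0.06 (adjusted p = 0.0883); it was singled out after its values were seen.

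Counted by overlap alone, all 3 KO arrays lay above all 3 WT arrays at P20 for 13 of the 34 genes (38.2%), against 10.7% of all named genes. They were Ift46, Ttc26, Ift20, Ift80, Ift172, Ift122, Ift140, Bbs1, Bbs2, Bbs4, Bbs7, Bbs9 and Bbs10. All KO arrays lay below all WT arrays for Bbs5 alone, against 9.95% of named genes, and 20 genes overlapped. The 34 genes share the arrays and were mostly rising with age, so these 13 are not independent observations, and the P20 arrays that set them also enter the age comparisons.

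**Figure D4:**
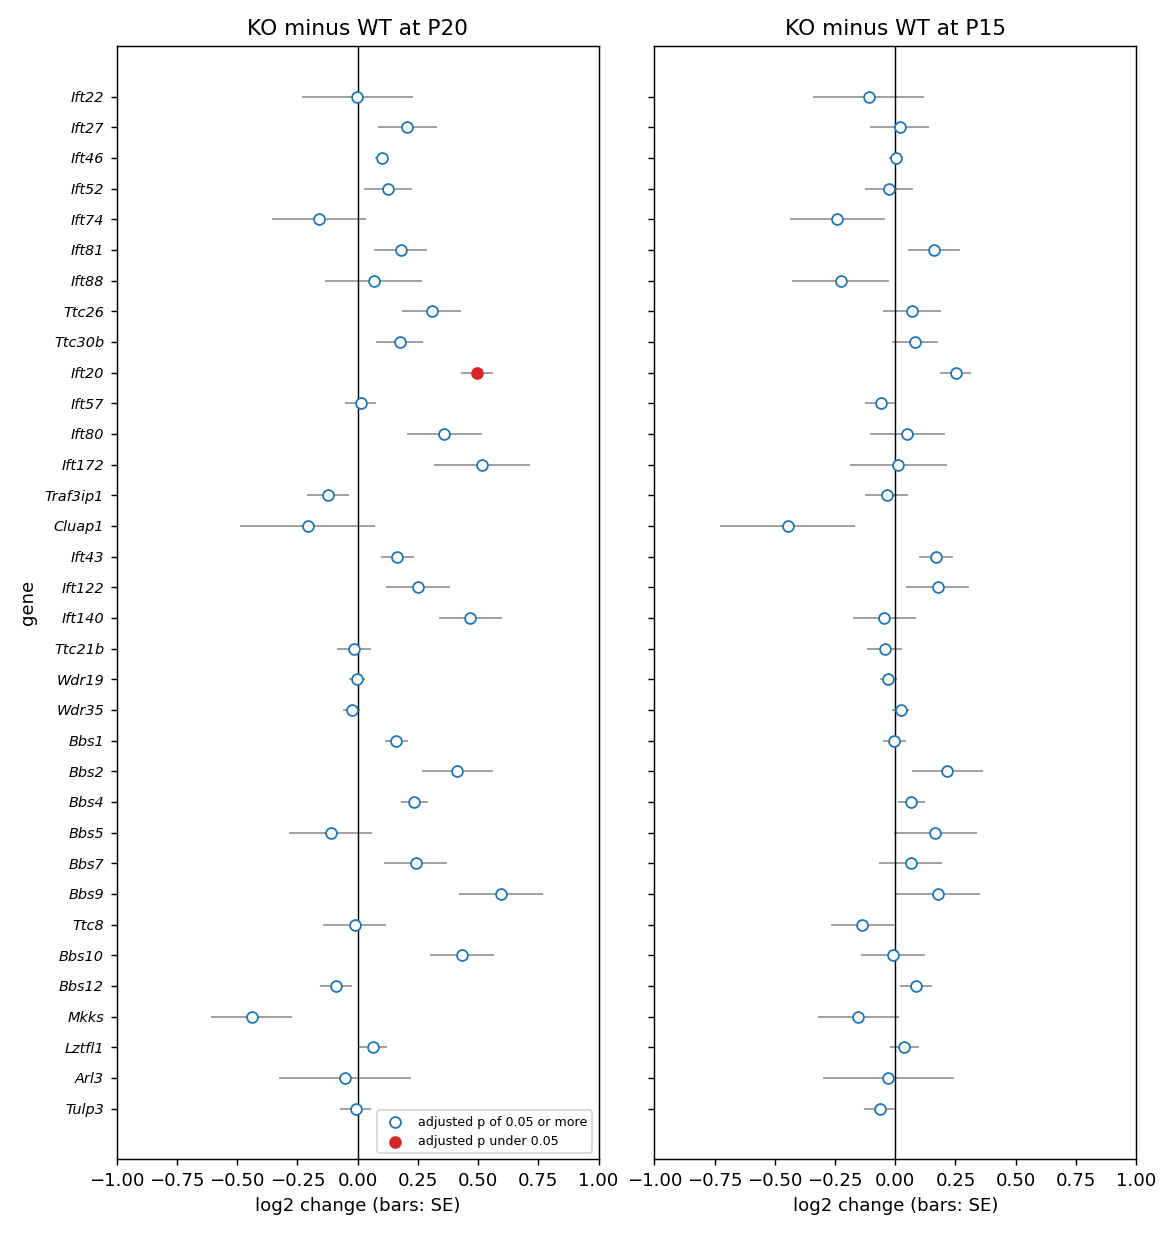
Log2 difference between KO and WT (horizontal axis) of each measured gene at P20 (left) and at P15 (right), with bars of 1 standard error of the limma fit and 3 arrays per group. At P20 Ift20 is the gene past the threshold, at 0.50, and 21 of the 34 points lie above 0. At P15 none is past it, and the points run from -0.45 (Cluap1) to 0.25 (Ift20).

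At P15 none of the 34 transport genes differed between genotypes by limma, with 2 at an unadjusted p under 0.05 (5.88%), Ift20 and Ift43, where 0.00525% of all named genes passed and 8.72% had an unadjusted p under 0.05. Of the 34 differences 18 were positive and 16 negative, and their median was 0.01. The KO arrays lay above the WT arrays for 2 genes, again Ift20 and Ift43, against 6.22% of named genes, and below for 0, against 4.86%. Ift43, an IFT-A subunit, had 11.40, 11.41 and 11.41 in KO P15 testes, against 11.22, 11.25 and 11.25 in WT P15 testes, a difference of 0.17 ± 0.07 (adjusted p = 0.619).

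Beside that of Ift20, the largest P15 differences were those of 3 other IFT-B genes, whose replicates were far apart. Cluap1 (also known as Ift38) had 9.84, 8.99 and 8.51 in KO P15 testes, against 9.21, 9.60 and 9.87 in WT P15 testes, a difference of -0.45 ± 0.28 (adjusted p = 0.777). Ift74 had 9.15, 8.61 and 8.26 in KO P15 testes, against 8.76, 8.91 and 9.06 in WT P15 testes, a difference of -0.24 ± 0.20 (adjusted p = 0.85). Ift88, the subunit disrupted in the Oak Ridge polycystic kidney mouse, had 9.92, 9.27 and 9.00 in KO P15 testes, against 9.40, 9.62 and 9.86 in WT P15 testes, a difference of -0.23 ± 0.20 (adjusted p = 0.867).

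In these genes KO replicate 1 stood above the other KO P15 arrays, and WT replicate 3 above the other WT P15 arrays. The same 2 arrays were the highest of their groups in the summed intensity of 8 spermatocyte markers, which was 23222, 12128 and 9660 in KO P15 testes, against 8664, 13394 and 26137 in WT P15 testes. The summed intensity of the 34 transport genes followed, with 29675, 26035 and 24944 in KO P15 testes, against 23036, 25019 and 28232 in WT P15 testes. Without these 2 arrays 0 of the 34 genes passed at P15, as with them, and 28 passed with age in KO and 25 in WT.

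The difference between the genotype effects at P20 and at P15 was itself fitted for every probe. None of the 34 genes passed by limma, 5 had an unadjusted p under 0.05 (14.7%), and of all named genes 0.0735% passed and 8.89% had an unadjusted p under 0.05. The differences were positive for 27 genes (79.4%, against 48.1% of all named genes) and negative for 7, with a median of 0.10. It was 0.51 ± 0.18 (adjusted p = 0.566) for Ift140, 0.50 ± 0.28 (adjusted p = 0.803) for Ift172 and 0.25 ± 0.09 (adjusted p = 0.587) for Ift20. The 5 genes with an unadjusted p under 0.05 were Ift140, Ift20, Ift46 (0.10), Bbs1 (0.16) and Bbs10 (0.44), and Ift172 was not among them. The call of Ift20 at P20 and not at P15, and the calls of Ift46, Bbs9 and Mkks with age in KO and not in WT, were therefore not shown to differ.

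Of 65 other genes of ciliary transport that were listed by role, 61 were measured. Between genotypes at P20, 1 rose, 0 fell and 60 did not pass (1.64% rose, near the share of all named genes), with 21 at an unadjusted p under 0.05 (34.4%, against 15.2% of all named genes). At P15 none passed by limma, with 3 at an unadjusted p under 0.05 (4.92%, against 8.72%). Kif3b, a motor subunit of kinesin-2, had 10.11, 10.13 and 9.91 in KO P20 testes, against 9.52, 9.44 and 9.65 in WT P20 testes. Its groups did not overlap, and the difference was 0.51 ± 0.09 (SE, limma adjusted p = 0.0372), 1.43-fold, close to that of Ift20. Its call was lost in 10 of 24 alternatives, 6 of them with a single array left out, and the mean over its probes differed by 0.20. With age 26 of the 61 rose and 7 fell in KO, and 26 rose and 6 fell in WT.

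Of the 14 motor genes, 8 rose and 1 fell in KO with age, and 7 rose and 1 fell in WT. Dynlrb2, a dynein light chain, had 11.82, 11.56 and 11.78 in KO P20 testes, against 8.97, 7.79 and 7.78 in KO P15 testes. Its change was 3.54 ± 0.38 (adjusted p = 6.47e-05) in KO and 2.78 ± 0.38 (adjusted p = 0.000499) in WT. Dync2h1, the heavy chain of the retrograde motor, rose by 1.80 ± 0.17 (adjusted p = 2.85e-05) in KO and 1.08 ± 0.17 (adjusted p = 0.00117) in WT, and the dynein-2 chain genes Tctex1d2 and Wdr60 rose by 1.88 and 1.20 in KO and by 1.63 and 1.10 in WT. Dynlrb1, the paralog of Dynlrb2, was the gene that fell. The change of Dynlrb1 was -1.12 ± 0.20 (adjusted p = 0.00212) in KO and -0.85 ± 0.20 (adjusted p = 0.0135) in WT. The fall in WT was lost without WT P15 replicate 1 or 2 or WT P20 replicate 3.

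Of 15 genes of the transition zone, the gate at the base of the cilium, 6 rose and 0 fell in KO with age, and 8 rose and 1 fell in WT. Ahi1 rose by 2.34 ± 0.21 (adjusted p = 1.89e-05) in KO and 2.14 ± 0.21 (adjusted p = 5.3e-05) in WT, and B9d1 by 1.77 ± 0.23 (adjusted p = 0.000277) and 1.93 ± 0.23 (adjusted p = 0.000246). Of 6 ciliary kinases 4 rose in KO and 3 in WT, among them Mok, a relative of Mak (2.17 in KO, 1.88 in WT), and Cdk20, an activator of that family (2.12 in KO, 1.84 in WT). Genes that handle lipid-modified cargo were divided. Of 11, 3 rose and 4 fell in KO, and 3 rose and 3 fell in WT. Pde6d, which carries prenylated cargo that Arl3 releases, rose by 0.69 in KO and 0.87 in WT, and Unc119, which carries myristoylated cargo, fell by 0.95 in KO and 0.66 in WT on the log2 scale.

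Lists of marker genes for the cells of the organ are set beside these results. The summed intensity of the 8 spermatocyte markers was 89831, 85486 and 86119 in KO P20 testes, against 72798, 78606 and 79276 in WT P20 testes, with 0 genes past the test and a median difference of 0.13. Ldhc, Hspa2 and Piwil1 carried most of that sum. At P20 the groups of Ldhc and Piwil1 overlapped, and Hspa2 had 15.01, 14.84 and 14.89 in KO testes, against 14.58, 14.74 and 14.72 in WT testes. The 34 transport genes summed to 53107, 54153 and 56194 in KO P20 testes, against 43256, 45412 and 47814 in WT P20 testes. For both lists every KO array lay above every WT array.

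The 8 Sertoli cell markers summed to 54315, 50729 and 48553 in KO P20 testes, against 63713, 60956 and 61114 in WT P20 testes. At P20 all 8 differences were negative and 1 passed, Cst9 at -0.34 ± 0.06 (adjusted p = 0.0299), a call lost in 11 of 24 alternatives, 6 of them with a single array left out. The part of a shift between germ and Sertoli cells in the KO values of the transport genes was not tested. With age the 8 Sertoli markers all fell in KO and 5 fell in WT, and 4 of the 8 spermatocyte markers rose in each genotype. Of 7 round spermatid markers 0 passed between genotypes and 1 rose with age in each, their sum being 2534 to 2603 in KO P20 testes, against 1987 to 3081 in WT P20 testes. That sum was carried by Acr, the gene that rose with age, at 10.75, 10.80 and 10.78 in KO P20 testes, against 10.13, 10.73 and 10.88 in WT P20 testes. Of the others, 3 had an unadjusted p under 0.05 and were lower in KO P20 testes, with log2 differences of -0.59 ± 0.18 (adjusted p = 0.178) for Odf1, -0.45 ± 0.14 (adjusted p = 0.201) for Acrv1 and -0.45 ± 0.10 (adjusted p = 0.0681) for Spaca1. Odf1, a protein of the outer dense fibres of the sperm tail, had 7.62, 7.66 and 7.59 in KO P20 testes, against 7.69, 8.33 and 8.63 in WT P20 testes. The part of these cells in the values of the transport genes was not tested.

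Other ciliated cells were looked for as well. Of 10 markers of the multiciliated epithelium of the efferent ducts 0 passed in any comparison. Their sum was 1516 to 1568 in KO P20 testes, against 1457 to 1549 in WT P20 testes. At P15 the sum was less even, with 1518, 1682 and 1843 in KO testes, against 1558, 1998 and 1546 in WT testes. Of the defining markers, Mcidas and Tmem212 were above background on 0 arrays, and Foxj1, Ccno and Fam183b on all 12, at 7.62 to 7.84, 8.24 to 9.37 and 7.71 to 8.88 over the arrays. The 10 epididymal markers summed to 3183, 1296 and 3744 in KO P20 testes, against 1274, 1304 and 1562 in WT P20 testes, high in KO replicates 1 and 3. That excess was carried by 2 of the 10 markers, Defb2 with 10.83, 7.50 and 11.14 in KO P20 testes, against 7.43, 7.45 and 8.62 in WT P20 testes, and Adam7 with 8.66, 7.46 and 9.08 against 7.39, 7.47 and 7.70. The other 8 lay at 7.36 to 7.97 on all P20 arrays. For Ift20 the values of those replicates (13.44 and 13.33) stood beside 13.32 in replicate 2, in which the epididymal sum was that of WT. Leydig cell markers had 0 of 5 past the test in any comparison, but their levels varied widely between P15 replicates. Cyp17a1 had 12.12, 12.40 and 7.98 in KO P15 testes, against 8.23, 12.11 and 11.44 in WT P15 testes. The lack of calls thus does not show a steady level of these markers. Of 6 adipocyte markers 3 rose in KO at P20, among them Adipoq by 1.27 ± 0.13 (adjusted p = 0.00256).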

How the data were processed

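RNA of 12 testes was measured on Illumina bead arrays, 1 per sample. The authors deposited a table of non-normalized linear intensity values and a table of processed intensities, made with BeadStudio per the submitters' processing notes (version not given in the sources used here). Quantile normalization of the raw table gave log2 values within 0.0124 of the authors' processed ones (median gap 6.59e-05). Neqc and a slide term were not run, for want of control probes, detection p-values and slide positions in the files used. Of the sample columns 0 went unused.

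Non-normalized intensities were quantile-normalized over 12 arrays, 50 was added and log2 taken, without background subtraction, which compresses fold changes. Group means of all 45281 probes were estimated in R 4.3.3 by limma 3.58.1 (lmFit and eBayes; residual degrees of freedom 8, prior 2.14), and p-values were adjusted by Benjamini-Hochberg, with a threshold of 0.05. Replicates are separate samples per the labels, and 3 arrays a group limit the precision. Background was the mode of the log2 values plus 1.645 SD of those below it, a lenient limit. Of the probes 34885 had 1 gene symbol, 18 several and 10378 were not listed.

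The gene set, the other lists and the tests were chosen with earlier results of these data known. Every measured gene could be named. Values on each array and full statistics were given for genes past the threshold between genotypes, for the largest absolute differences up to 8 genes at P20 and 4 at P15, and, with age, for the largest 6 rises and up to 4 falls past the threshold. Of the other lists up to 5 genes past the threshold were named by size, or else the 2 of highest mean. Single markers of spermatocytes, round spermatids, Leydig cells, multiciliated epithelium and epididymis were named after their values were seen. Matches of letters in promoter windows were counted in RefSeq sequence. The fit was tested on simulated data. Alternatives were the authors' values, other normalizations, background corrections, filters on dim probes, other model settings, a block for the replicate number, averages over the probes of a gene, and leaving out arrays.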

Additional observations from a re-analysis of the deposited data

How the results depend on the processing

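The counts and medians of the 34 transport genes and 27 changes of single genes (those between genotypes or with age that the naming rule picks) were recomputed under 24 alternatives (23 for the difference of the genotype effects, which could not be fitted with only the groups compared). Of these 27, and of all changes of transport genes past the threshold, 0 changed sign. Among transport genes not past it, up to 7 changed sign at P15 and up to 6 at P20, both with 75th percentile scaling. The median of the transport genes ran from 0.09 to 0.16 at P20, from -0.04 to 0.08 at P15 and from 0.04 to 0.19 for the difference. The number of transport genes past the threshold between genotypes at P20, 1 with all arrays, was 2 in a fit of only the groups compared, which added Bbs4. It was 0 without KO P20 replicates 1 and 3 together, and 1 to 2 when single arrays were left out, with 2 without WT P15 replicate 1 (adding Bbs4) or WT P20 replicate 3 (adding Ift43). The difference of Ift20 at P20 ranged from 0.35 to 0.56 (adjusted p 0.00146 to 0.162), and was lost in the fit without both KO arrays. The count was 0 at P15 and for the difference of effects under every alternative run. With single arrays left out, the age count was 24 to 27 in KO (26 with all arrays) and 20 to 25 in WT (23), and the medians were 0.47 to 0.66 and 0.35 to 0.58. Over all alternatives these counts were 21 to 28 and 20 to 25. Normexp correction with an offset of 50 raised the medians with age to 0.80 in KO and 0.72 in WT. Leaving out 1 array of the groups compared ended the age calls of Traf3ip1, Bbs5 and Mkks in KO and of Ift52, Ift88, Bbs4 and Ttc8 in WT. The P20 difference of Kif3b ran from 0.20 to 0.59 (adjusted p 0.0132 to 0.192). With 75th percentile scaling the median over all probes was 0.05 at P20 and 0.11 at P15, where the medians of the transport genes were 0.16 and 0.06. Samples of the same number deviated from their group means with r from -0.35 to 0.19, and those of different numbers with r from -0.26 to 0.39. No pairing by number was seen, but with 3 samples a group this cannot exclude a shared litter, slide or batch. With the replicate number as a block the counts were 1 at P20, 0 at P15, 0 for the difference, 25 in KO and 22 in WT with age. Leaving out KO P15 replicate 1 and WT P15 replicate 3 together, chosen after seeing the data, gave 1, 0, 0, 28 and 25 in that order. A slide term was not run. With 3 arrays a group and no background subtraction, small differences of dim genes such as Wdr19 or Ift57 can be missed.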
